A study of Arabidopsis thaliana with 5 samples.

Results

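The regions bound by SCL28-GFP in Arabidopsis thaliana seedlings were defined as the ChIP-Seq peaks that overlapped by 1 bp or more between the lists of both SCL28-GFP samples on chromosomes 1 to 5. A ChIP-Seq peak is a stretch of the genome where fragments pulled down with the tagged protein pile up, and its summit is the highest point. The lists held 488 and 396 peaks, of which 360 were shared. After 3 long peaks on transgene sequence and on YUC5 were left out, 357 shared peaks remained of 18951 peaks in the 5 lists of the series. Chromatin came from whole seedlings, and fragments were precipitated with an antibody against GFP in the 2 SCL28-GFP samples, whose genotype is labelled E1M-GFP (E1M is an earlier name of SCL28). The WT sample was Col0 total chromatin sequenced as input, with no antibody and 1 sample. The list of this input held 5695 peaks. The remaining pair of lists came from a line expressing AtSMOS1-GFP and is used here for a single overlap.

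Several features of the samples limit what the comparison can show. The input is the only control, and neither an untagged nor a GFP-only precipitation was analysed here. The study's text names the strong meristem promoter of RPS5A for the SCL28-GFP line in its results and SCL28's own promoter in its methods. The long shared peak on the RPS5A promoter, described with the left-out peaks, is a measurement that bears on this point. The peaks in the list of replicate 2 carry internal names of the other protein, and the sample was taken from its label. The study gives the replicates as biological, while the labels do not say whether they came from separate cultures. Read depth is not in the lists. The reporting form of the study gives more reads for replicate 2 than for replicate 1 of SCL28-GFP, and the part of this gap in the lengths of the lists was not tested. Precision is shown by the spread between replicates, and 95% intervals of shares are exact Clopper-Pearson intervals that cover counting error only.

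SCL28 is a transcription factor of the GRAS family. Its transcript peaks around G2 and M phase, when MYB3R factors drive genes with an MSA element in their promoters. It works as a heterodimer with AtSMOS1, a factor of the AP2 type. The SIAMESE/SIAMESE-RELATED (SIM/SMR) genes code for plant inhibitors of cyclin-dependent kinases (CDKs), which hold back mitotic division and favour endoreduplication, the copying of the genome without division. Their levels are therefore studied in the control of cell size.

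The sequences under the summits were read from the RefSeq genome TAIR10.1, whose nuclear chromosomes have the same lengths as the TAIR10 build of the lists. A 30-base stretch is shown for 9 peaks that held the 12-bp motif which the study derived for targets common to SCL28 and AtSMOS1. They comprise 8 of the 9 peaks with an exact match among the 25 most enriched and 1 peak upstream of SMR13. Capitals mark the motif, and each stretch is written 5′ to 3′ on the strand that carries it.
AT4G09160 (5′ UTR, chr4:5839655-5839684, plus strand): agagcccaaCATTGGATTCCTcttctttga
AT5G48790 (upstream, chr5:19782513-19782542, plus strand): tgttgtttgCATTGGATGCTTgtttgggta
AT1G18470 (5′ UTR, chr1:6360250-6360279, plus strand): atttatttcCTTTGGATTCCTtttgttttt
AT5G06075 (beyond the gene end, chr5:16206804-16206833, minus strand): agtttcgggCATAGGATACCTttttggcgg
AT3G55710 (5′ UTR, chr3:20673631-20673660, plus strand): tgatcctatCATAGGATTCCTatgtaaagt
AT1G70590 (upstream, chr1:26617670-26617699, minus strand): ttgtaattgCATAGGATTCCAttcagcttg
SMR2 (upstream, chr1:2565538-2565567, plus strand): aatggttggCATAGGATACCAtttcatcaa
AT4G02100 (5′ UTR, chr4:929940-929969, minus strand): gatgaagttCTTTGGATCCTTtcctcttcc
SMR13 (upstream, chr5:23946816-23946845, minus strand): tatgtgttgCATAGGATCCCTcgcacaaag

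The surroundings of the motif are shown for 3 of these peaks that lie outside genes, as 200 bases centred on the summit and written on the plus strand, with the motif or its reverse complement in capitals.
AT5G48790 (chr5:19782483-19782682): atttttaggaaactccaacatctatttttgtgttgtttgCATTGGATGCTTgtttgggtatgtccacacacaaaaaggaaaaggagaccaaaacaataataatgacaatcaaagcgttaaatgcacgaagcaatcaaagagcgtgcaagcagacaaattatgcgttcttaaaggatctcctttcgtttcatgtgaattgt
AT5G06075 (chr5:16206708-16206907): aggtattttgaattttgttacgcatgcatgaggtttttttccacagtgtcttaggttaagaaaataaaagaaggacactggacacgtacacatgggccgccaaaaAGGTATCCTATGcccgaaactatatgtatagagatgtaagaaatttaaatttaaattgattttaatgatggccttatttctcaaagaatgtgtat
AT1G70590 (chr1:26617563-26617762): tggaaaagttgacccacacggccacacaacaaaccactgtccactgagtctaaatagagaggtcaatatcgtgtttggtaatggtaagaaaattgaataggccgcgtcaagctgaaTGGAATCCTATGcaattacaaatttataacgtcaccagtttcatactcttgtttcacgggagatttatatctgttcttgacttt

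Enrichment was read as the fold enrichment at the summit that the peak caller wrote for each list, and pairs of values are replicate 1 and replicate 2. Over the 357 shared peaks the mean of both replicates ranged between 2.55 and 16.5, with a median of 4.82 and quartiles of 3.75 and 6.47. A mean of 10 or more was reached by 18 peaks and a mean of 5 or more by 168, while 12 were under 3. The shared peaks thus form a continuous range with a thin upper end. The replicates ranked them alike: across the 357 peaks Pearson's r of the log2 fold was 0.925 and Spearman's rho 0.910, as a description of peaks that were required to be in both lists. The ratio of replicate 1 to replicate 2 had a median of 1.03 and lay between 0.781 and 1.26 for the middle 90 percent of peaks. Replicate 1 was higher at 201 peaks and replicate 2 at 156. The summits of a shared peak lay a median of 22 bp apart, and 11 pairs were over 100 bp apart. The 128 peaks found in replicate 1 alone had folds of 1.97 to 4.41, and the 36 found in replicate 2 alone had 2.43 to 4.93, so no unshared peak reached 5.

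The shared peaks hardly touched the input list. Of 357 peaks, 3 overlapped an input peak (0.840%, 95% interval 0.174 to 2.44). The study's reporting form gives the input as the control in the peak calls, so these lists are already weighed against it, while the folds of the input list are its own and how they were called is not given. The first of the 3 lay in the 3′ UTR of AT1G25510, an aspartyl protease gene, with folds of 8.48 and 7.28 in SCL28-GFP against 3.56 in the WT input. The second lay 152 bp upstream of SMR4 with 5.87 and 5.60 in SCL28-GFP against 3.21 in the WT input. At both, the pair of SCL28-GFP values was above the input value. The third, 45 bp upstream of HAB2, a phosphatase that dampens abscisic acid signalling, had 1.97 and 3.45 in SCL28-GFP against 4.33 in the WT input. Here the input fold was the highest of the 3 values. The input peaks were also shorter, with a median length of 156 bp against 385 and 321 bp in the whole SCL28-GFP lists. The shared peaks, whose length spans the calls of both replicates, had a median of 419 bp.

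The strongest shared peak lay in the 5′ UTR of AT4G09160, which codes for a SEC14-type lipid transfer protein, 76 bp inside the gene, with folds of 16.8 and 16.2 (mean 16.5 ± 0.409, SD, n = 2). The second lay in an intron of TRN2 (TORNADO2), a tetraspanin needed for leaf and meristem patterning, with 15.5 and 13.0 (14.2 ± 1.81). AT4G09160 was first in both replicates, while the peaks that followed changed places between them. AT5G48790, annotated as a photosystem II accumulation protein, had 13.5 and 14.2 at a summit 517 bp upstream. AT1G18470, annotated as a transmembrane protein, had 14.2 and 11.7 in its 5′ UTR. Of the 25 strongest peaks in replicate 1, 20 were also among the 25 strongest in replicate 2.

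Most of the strongest peaks sat close to the start of a gene. Among the 25 with the highest mean, 12 were upstream of the nearest gene, 10 of them within 1 kb, and 7 were inside it. Of those 7, 6 were in a 5′ UTR and 1 in an intron. The remaining 6 lay beyond the end of the nearest gene. In the 5′ UTR group, AT3G55710, a UDP-glycosyltransferase that attaches sugars to small molecules, had 12.8 and 11.5. The lectin receptor-like kinase AT3G53380 had 11.5 and 11.96, and AT1G69160, annotated as a suppressor, had 10.01 and 11.2. AT4G02100, a DnaJ co-chaperone, had 10.7 and 9.19.

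The upstream group held genes of varied function. AT2G46640, annotated as TAC1 of a family that sets branch angle, had 12.2 and 10.6 at 381 bp upstream. The F-box gene AT1G70590, of the family that selects proteins for ubiquitination, had 11.6 and 10.2 at 436 bp upstream, and its motif and surroundings are among the sequences printed. The AAA-type ATPase gene AT4G18820 had 10.7 and 11.3 at 1194 bp. A region between AT1G45170, an outer envelope pore protein, and AT1G45180, a RING-type ubiquitin ligase gene, had 9.94 and 11.4 and lay 107 bp and 327 bp upstream of these divergent genes. AT3G47480, an EF-hand calcium-binding protein, had 10.6 and 8.99, and the calmodulin-binding IQ67-domain gene IQD14 had 9.58 and 9.58. The list of the 25 closes with MAMI at 10.3 and 8.58.

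**Figure D1:**
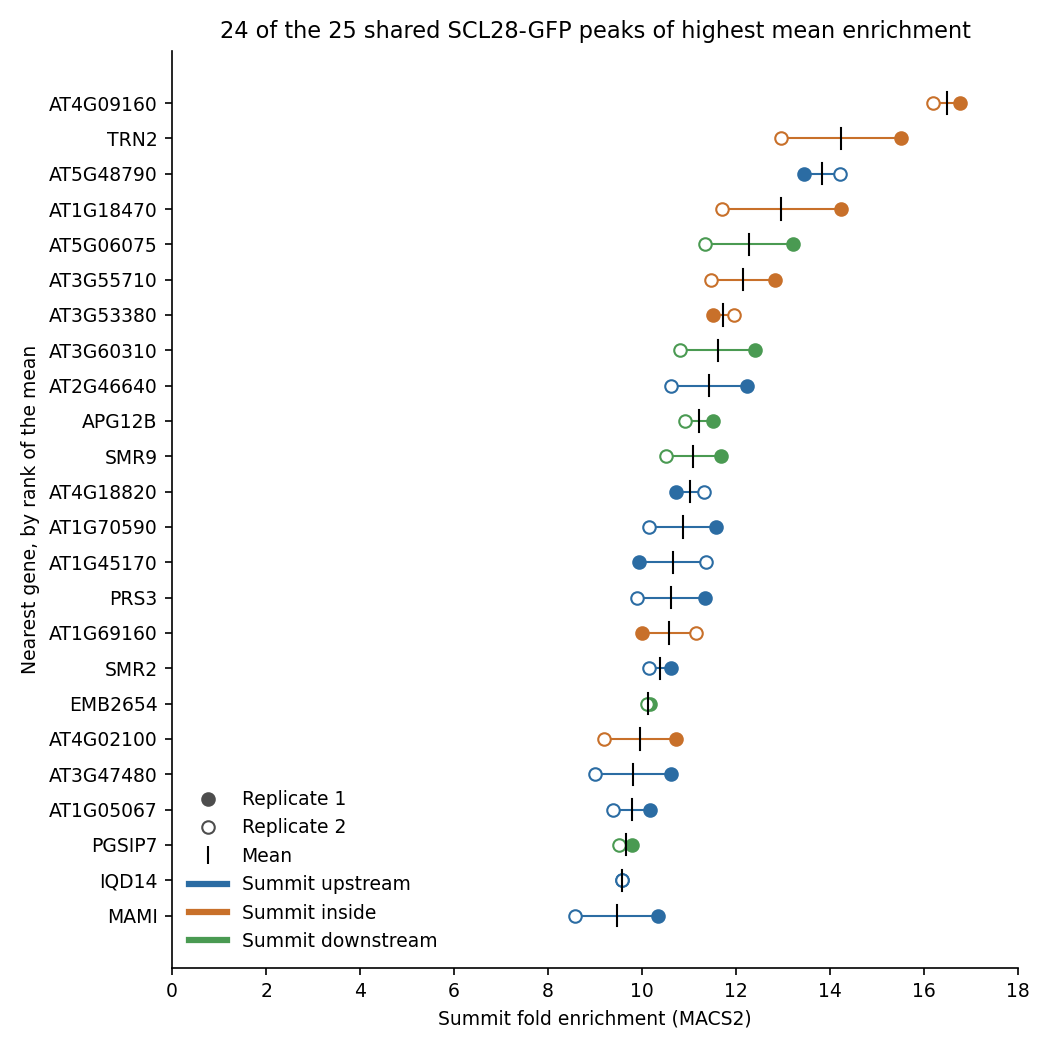
Fold enrichment at the summit (horizontal axis, linear) of 24 of the 25 shared SCL28-GFP peaks with the highest mean, named by nearest gene, with 1 point per replicate (filled for 1, open for 2), a mark at the mean, and colours for a summit upstream of, inside or beyond the end of the gene. The means fall from 16.5 at AT4G09160 to 9.46 at MAMI, and no replicate value is under 8.58.

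The shared peaks lay nearest to 342 annotated genes (294 of them protein-coding), which was 1.03% of 33056 annotated genes, against 4781 genes or 14.5% for the WT input. This 1.03% is the background against which the share of each gene family is read. The SIM/SMR family stood above this level. Of its 17 genes, 7 (41.2%) were nearest to a shared peak, against 1 (5.88%) for the WT input. Within 3 kb of a summit there were 9 of the 17 for SCL28-GFP and 6 for the WT input. The count of 7 held with either replicate list alone. The median of the highest mean fold per gene was 7.21 in the 7 SIM/SMR genes, and the median over all shared peaks was 4.82. These medians are not like for like, since the first leaves out the weaker peaks of a gene. The family was a focus of the study, so this count describes these lists and is not independent evidence.

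At the SIM/SMR genes the peaks were not confined to promoters. SMR2 had its peak 228 bp upstream with folds of 10.6 and 10.1 (mean 10.4 ± 0.345, SD, n = 2), with a motif match in the sequence printed. SMR9 had 11.7 and 10.5 (11.1 ± 0.825) at 278 bp beyond its end, and no exact motif match there. SMR4 had its single peak 152 bp upstream, as given with the input. SMR15 had 4.45 and 3.73 at 736 bp upstream, the lowest mean among the strongest peaks of the 7 genes, and the spread of its replicates does not reach the values of SMR2 or SMR9. For SMR6, the nearest peak at 6.12 and 7.85 was 457 bp beyond the gene end.

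SMR8 and SMR13 each had 2 peaks nearest to them. At SMR8, the peak 772 bp beyond the end had 7.43 and 6.99, and the peak in the 5′ UTR had 3.23 and 3.84. Another peak 2159 bp upstream of SMR8 had 11.3 and 9.89 and lay nearer to PRS3, a synthase of the nucleotide precursor PRPP, at 1097 bp upstream. The strongest signal in this interval was thus the one shared with a divergent neighbour. At SMR13, the upstream peaks at 382 bp and 1458 bp had 8.71 and 8.68, and 6.36 and 6.47. A further peak 355 bp beyond its end had 5.39 and 4.56 and lay in the non-coding gene AT5G08915.

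SMR1 and SMR14 had a shared peak within 3 kb that was nearer to another gene. The peak 2275 bp upstream of SMR1 had 5.78 and 5.78 and was nearest to AT3G10530. The peak 786 bp beyond the end of SMR14 had 7.91 and 8.56 and was nearest to AT3G20900. SIM itself, the founding member, had no shared peak within 3 kb, and the closest was 15667 bp away. The closest to SMR5 was 4339 bp away. The KRP genes, the other plant family of CDK inhibitors, had no nearest shared peak among 7 genes, and no nearest WT input peak either. Beside the 1.03% of all genes, a list of 7 is too small for this to be read as a lack.

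A gene with several peaks was uncommon. Of the 342 genes, 15 (4.39%) had 2 shared peaks and none had more, against 627 of 4781 (13.1%) with 2 or more, and up to 13, for the WT input. Where neighbouring summits within 5 kb were joined, 48 shared peaks (13.4%) fell into 21 clusters, 15 of 2 peaks and 6 of 3, and 309 peaks stood alone. In the WT input, whose list is larger, 2248 peaks (39.5%) fell into 922 clusters. The widest SCL28-GFP cluster spanned 4601 bp and the median span was 1910 bp. In 12 of the 21 clusters the peaks were nearest to more than a single gene, so a count per gene did not hold all their peaks together. Some of these, such as the SMR8 and SMR13 clusters, still held a gene with 2 peaks.

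The 6 clusters of 3 peaks show how the binding was spread, and 3 of them had a SIM/SMR gene within 3 kb. These were the SMR8 and SMR13 intervals and an interval of SMR6 and AT5G06075, a long non-coding RNA gene next to it. The interval of SMR6 held 6.12 and 7.85 beyond the end of SMR6, 3.22 and 3.74 farther on, and 13.2 and 11.3 at 355 bp beyond the end of AT5G06075. This last peak was the fifth strongest of all. Near GRF5, a growth-regulating factor that promotes leaf cell division, and APG12B, a ubiquitin-like protein of autophagosome formation, folds were 3.57 and 3.84, 11.5 and 10.9, and 6.68 and 5.80. The middle peak, 152 bp beyond the end of APG12B, was the strongest. The proline-rich protein gene AT4G16140 and the GATA zinc finger gene AT4G16141 had 5.56 and 6.22, 7.90 and 6.56, and 5.67 and 5.89. The interval of AT5G03660 and the non-coding AT5G03668 had 3.78 and 4.11, 4.25 and 3.28, and 4.08 and 3.78, with no leading peak beyond the spread of the replicates.

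**Figure D2:**
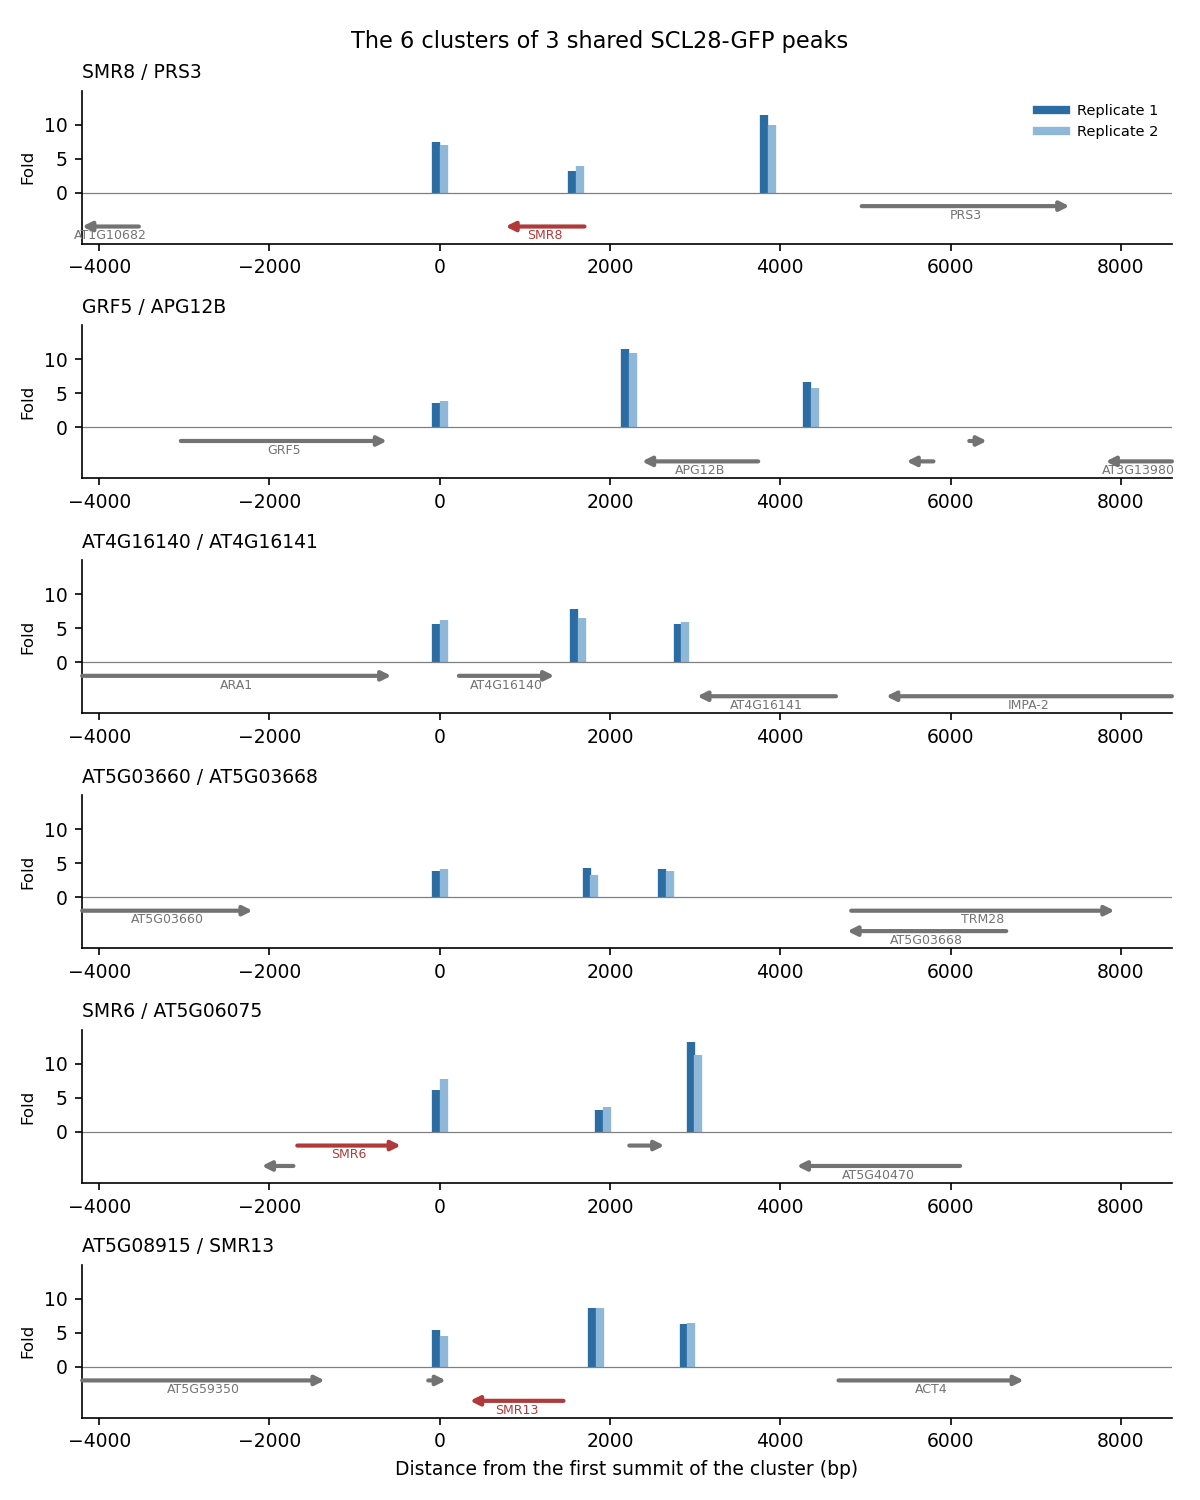
The 6 clusters of 3 shared SCL28-GFP peaks, with the distance from the first summit in bp on the horizontal axis, the fold enrichment as 1 bar per replicate on the vertical axis (linear, from 0), and genes as arrows, SIM/SMR genes in red. Each cluster but that of AT5G03660 has a peak with a mean above 7, and the AT5G03660 cluster stays under 5 throughout.

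Relative to genes, the shared peaks lay on the flanks more often than the WT input peaks. The share of the genome in each position was not computed, so the input list is the only background here. Of 357, 122 (34.2%, 95% interval 29.3 to 39.3) were within 1 kb upstream of the nearest gene, against 17.2% of WT input peaks. Inside the nearest gene lay 104 (29.1%, 24.5 to 34.1), against 53.3% of WT input peaks. Within 1 kb beyond the gene end lay 67 (18.8%, 14.9 to 23.2), against 8.53% of WT input peaks. The SCL28-GFP shares were thus above those of the input on either flank and below it inside genes. Only 10 shared peaks (2.80%) were over 3 kb from any gene, against 9.85% of WT input peaks.

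The replicate lists taken alone gave the same picture. The upstream share was 33.8% and 34.9% in SCL28-GFP against 17.2% in the WT input, a difference of 17.1 percentage points. The share inside genes was 29.3% and 29.3% in SCL28-GFP against 53.3% in the WT input, a difference of -24.1 points. The share beyond gene ends was 17.3% and 16.3% in SCL28-GFP against 8.53% in the WT input, a difference of 8.27 points. In all 3 the gap to the input was larger than the gap between replicates. With 2 lists against 1, an exact permutation test, two-sided, gave p = 0.333 for each, which is the smallest value it can give, so it cannot pass 0.05.

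**Figure D3:**
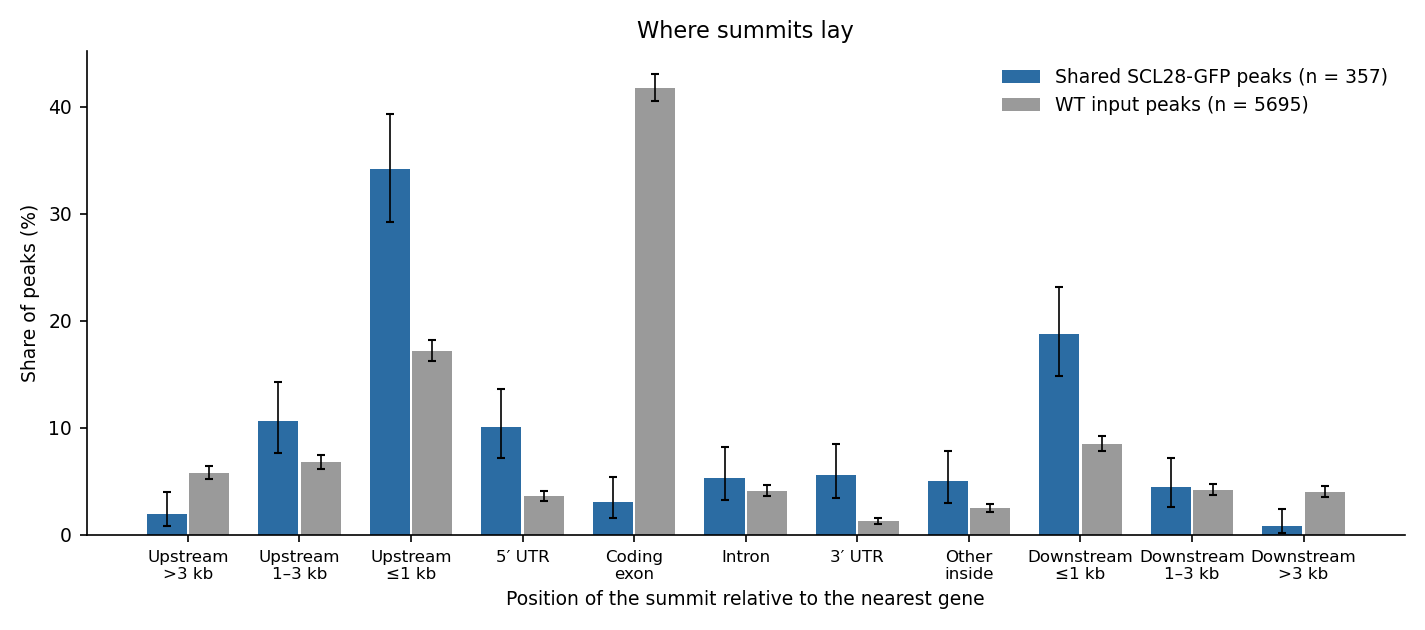
Share of peaks (percent, vertical axis from 0) in each position relative to the nearest gene, for shared SCL28-GFP peaks and WT input peaks, with error bars for the 95% Clopper-Pearson interval. SCL28-GFP is higher upstream within 1 kb (34.2% against 17.2%) and beyond the end within 1 kb (18.8% against 8.53%), and lower in coding exons (3.08% against 41.8%).

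The part of the gene also differed between the lists. In the 5′ UTR lay 36 shared peaks (10.1%), against 3.60% of WT input peaks, and in the 3′ UTR 20 (5.60%), against 1.30%. Coding exons held 11 shared peaks (3.08%), against 41.8% of WT input peaks. Introns held 19 (5.32%), against 4.14%. The low share inside genes thus came from coding exons, while untranslated ends and introns were not below the input. Besides TRN2, the intron peaks included ACT12, an actin gene, at 10.1 and 8.65, and the MYB-domain gene AT3G27340 at 7.37 and 7.05. In the 3′ UTR, PIP3, a plasma membrane aquaporin, had 9.87 and 8.05. GCP2, part of the γ-tubulin complex that nucleates microtubules, had 7.84 and 6.26.

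Summits gathered at both ends of genes. The 200 bp before the transcription start held 13.7% of shared peaks and the 200 bp after it 11.5%, against 4.88% and 7.80% of WT input peaks. The next 200 bp into the gene held 2.24% of shared peaks and 12.4% of WT input peaks, the fullest bin of the input. At the other end, the last 200 bp of the gene held 6.16% of shared peaks and the 200 bp beyond it 8.12%, against 2.41% and 2.62% of WT input peaks. The SCL28-GFP profile thus fell off within 200 bp of the start, where the input rose.

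**Figure D4:**
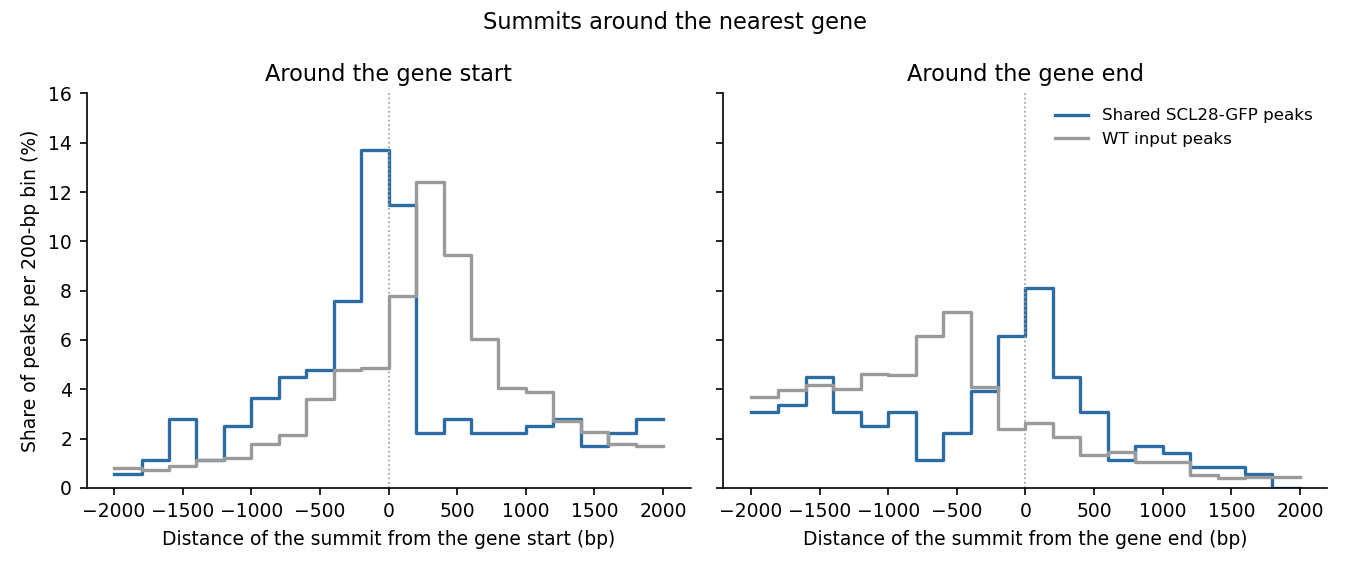
Share of peaks (percent, vertical axis) in bins of 200 bp by distance of the summit from the start of the nearest gene (left) and from its end (right), for shared SCL28-GFP peaks and WT input peaks. SCL28-GFP is highest just before the start (13.7%) and just beyond the end (8.12%), while the WT input is highest between 200 and 400 bp inside the gene (12.4%).

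The median mean fold was 5.21 for the 67 peaks within 1 kb beyond a gene end and 3.88 for the 16 between 1 and 3 kb beyond it. It was 4.77 upstream within 1 kb, 5.24 upstream between 1 and 3 kb and 4.31 inside genes, so peaks close to a gene end were not weaker by this measure than those upstream within 1 kb or inside genes. Of the 67 within 1 kb of a gene end, 29 lay between 2 converging genes with no start facing the gap, 20 had the start of the other gene over 1 kb away and 18 had it within 1 kb. A minority of them thus had the start of another gene close by. The acyl-CoA synthetase gene AT3G60310 had 12.4 and 10.8 at 156 bp beyond its end, with the end of AT3G60320 at 262 bp on the other side. EMB2654, a gene of a tetratricopeptide repeat protein, had 10.2 and 10.1 at 275 bp beyond its end, and the same summit was 278 bp upstream of AT2G41710. AT2G41710 is AtSMOS1, the partner of SCL28, and it is named here after its values were seen. AT2G22660 had 9.11 and 8.35 at 330 bp beyond its end, and PGSIP7, a glycogenin-like glycosyltransferase, had 9.80 and 9.52 at 2046 bp.

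Between divergent genes, 26 of the 122 upstream peaks had both starts within 1 kb, with a median mean fold of 5.74. Besides AT1G45170, these included the gap of AT2G22650 and AT2G22660, at 8.72 and 9.004, 119 bp and 151 bp from the starts. AT2G22660, annotated as a putative DNA-binding protein, therefore had strong peaks at both ends. Far from genes, values were moderate. The strongest of the 10 peaks over 3 kb away was 3148 bp beyond the non-coding AT2G04345, at 7.97 and 7.65. The caleosin gene AT5G29560 had 7.08 and 5.35 at 5340 bp. NRT2.5, a high-affinity nitrate transporter, had 5.83 and 4.73 at 3343 bp upstream. AT1G67340 had 5.23 and 4.88, and AT3G04595 had 4.81 and 4.93.

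The remaining nearest genes were spread over many functions. Of 42 lists of gene families and pathways, 9 had no nearest gene, and 137 of the 342 genes were in at least 1 list. The lists searched for cell cycle regulators other than the SIM/SMR genes gave a single nearest gene. Of 54 cyclins and CDKs (1.85% nearest), this was CYCD5;1, a D-type cyclin, at 4.44 and 4.00 and 2643 bp upstream. None of 20 genes of the MYB3R, E2F and RBR group was, against 5 of 20 in the WT input. Beside the 1.03% of all genes, lists of 54 and 20 genes are too small for a low count to be read as a lack.

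Ethylene genes were searched together with the AP2/ERF factors and are given with these. In each other list of hormone genes, 2 members at most were nearest to a shared peak, to be read beside the 1.03% of all genes. The shares were 0.526% of 190 auxin, 2.70% of 37 gibberellin, 2.38% of 42 brassinosteroid and 3.77% of 53 abscisic acid genes. In the WT input they were 14.7, 27.0, 9.52 and 35.8% in the same order, beside 14.5% of all genes. No difference from the share of all genes was tested. IAA2, a repressor of auxin response, had 3.56 and 3.53, and was 1 of 190 auxin genes. The gibberellin gene GA3OX1, whose enzyme makes the bioactive hormone, had 3.94 and 3.41 at 4403 bp upstream. DWF4, an enzyme of a rate-limiting step in making brassinosteroids, had 4.15 and 4.41. All 3 were below the median of 4.82. RCAR3, an abscisic acid receptor, had 4.88 and 4.64 at 13 bp upstream with a motif match. It and HAB2 were the 2 of 53 abscisic acid genes. No nearest gene was among 74 cytokinin or 31 jasmonate genes, lists too small for a low count to be read as a lack.

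Several transcription factor families had shares above the 1.03% of all genes, each from 5 genes or fewer and with no test of the difference. In the WT input, the shares were 16.9% for WRKY, 15.4% for MYB, 27.2% for AP2/ERF and 30.7% for homeobox genes. That for growth-regulating factors was 41.7%. These families were thus also above the 14.5% of all genes in the input list. The bHLH factors, at 0.719% for SCL28-GFP, were below the 1.03%. WRKY22, a factor of the defence response, had the highest pair of the WRKY family, 8.37 and 8.57 at 1051 bp upstream, and 2 of 77 WRKY genes (2.60%) were nearest. The list of MYB and MYB-related factors, a search of annotation words, held 5 of 266 (1.88%). It was led by AT5G28300, annotated only as a duplicated homeodomain-like protein, at 10.1 and 8.03. The joint list of ethylene genes and AP2/ERF factors held 4 of 147 (2.72%). Among them was ORA59, an integrator of jasmonate and ethylene defence signals, at 4.89 and 5.43. Homeobox genes held 3 of 88 (3.41%), among them KNAT6, a factor of the shoot meristem, at 4.00 and 3.60 in an intron. None of 118 NAC, 24 TCP or 25 GRAS genes was nearest, SCL28's own long peak being left out. Growth-regulating factors held 1 of 12 (8.33%), the GRF5 described with its cluster.

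The cytoskeleton list held 8 of 313 genes (2.56%), beside the 1.03% of all genes, a difference that was not tested. ACT12 and GCP2 led it, followed by AT1G50660, annotated as an actin-regulatory protein, at 7.36 and 5.97. PFN2, a profilin that binds actin monomers, had 6.26 and 6.50. The kinesin gene AT3G20150 had 3.45 and 4.78 in its 5′ UTR. The lowest of the 8 was MDP40 at 4.23 and 3.34. The list is a search of annotation words, so it mixes proteins of different parts of the cytoskeleton. In the WT input, 19.5% of its genes were nearest, beside 14.5% of all genes.

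At the membrane, 2 of 37 aquaporin genes (5.41%) were nearest, PIP3 as given with the 3′ UTR and PIP1A at 6.34 and 5.76. In the WT input, 35.1% of the aquaporin genes were nearest, beside 14.5% of all genes. The SCL28-GFP shares in these lists are read beside the 1.03% of all genes, with no test of the difference. Other transporters held 9 of 749 (1.202%), near the background. The strongest was AT2G40460 at 8.48 and 8.19, followed by PHT4;3, a phosphate transporter, at 8.71 and 7.65. The calcium pump gene ECA4 had 7.32 and 7.24. Receptor-like kinases held 6 of 417 (1.44%), with AT3G53380 far above the next, AT1G53430 at 6.27 and 6.03. Cell wall genes held 5 of 601 (0.832%), led by the pectin lyase-like gene AT3G16850 at 9.96 and 8.74. F-box, RING and U-box genes held 11 of 1184 (0.929%), among them FBS3 at 7.79 and 7.31 and FBS2 with 2 peaks, in the 5′ UTR at 6.25 and 5.66 and in the 3′ UTR at 3.47 and 3.76.

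Housekeeping and chromatin lists held a few genes each, to be read beside the 1.03% of all genes. Ribosomal proteins held 1 of 351 genes (0.285%) and histones and chromatin 1 of 188 (0.532%). The chromatin gene was AT1G62310, a jumonji-domain gene of the kind that demethylates histones, at 8.44 and 6.67 in its 5′ UTR. Chaperones held 2 of 280 (0.714%), and cytochrome P450 genes 5 of 252 (1.98%). None of 99 small signalling peptides and none of 97 clock and light genes was nearest.

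Non-coding genes were nearest to a larger share of SCL28-GFP peaks than of input peaks. Long non-coding RNA genes were nearest to 41 shared peaks (11.5%), against 5.53% of WT input peaks, and protein-coding genes to 304 (85.2%), against 90.7%. Counted by gene, 38 of 3480 long non-coding RNA genes (1.09%) were nearest, which is the background share. AT5G06075 led them, followed by AT1G05067 at 10.2 and 9.39 and AT4G09175 at 9.16 and 7.93. Among 326 microRNA genes, MIR159a, whose product targets GAMYB-type factors, had 7.39 and 6.40 at 427 bp upstream. MIR393b, whose product targets auxin receptors, had 4.49 and 5.79.

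In the 200 bp around the summit, 96 of 357 shared peaks (26.9%, 95% interval 22.4 to 31.8) held an exact match to the 12-bp motif on either strand. Of WT input peaks 0.0702% did, and of all 200-bp windows tiled over the 5 chromosomes 0.190%. The motif was derived by the study from these samples, so its presence here is a description. With 1 mismatch allowed, 221 peaks (61.9%) matched, against 2.48% of WT input peaks and 4.70% of windows. The GGATNC core, which is part of the motif, was in 282 peaks (79.0%), against 18.7% of WT input peaks and 19.3% of windows. A pentamer outside the motif, AACGG, the core of the MSA element that MYB3R factors bind, was in 72 peaks (20.2%), against 26.0% of WT input peaks and 15.3% of windows.

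The motif sat close to the summit. Over 97 matches the median distance between its centre and the summit was 21.5 bp, with quartiles of 9.5 and 35.5, and 85 were within 50 bp. In the sequences printed, the match at AT4G09160 was 5.5 bp and that at SMR2 6.5 bp from the summit, while that at AT5G48790 was 55.5 bp away. When the peaks were ordered by enrichment and divided into 5 groups of about equal size, the share with a match was 43.7% in the strongest group and 22.5, 23.6, 26.8 and 18.1% in the following groups. The median fold of peaks with a match was 5.28, against 4.60 without. The share differed little by position, at 27.9% upstream within 1 kb and 28.4% beyond gene ends within 1 kb, with 26 of the 104 peaks inside genes.

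Strong enrichment was also seen without an exact match. Of the 25 strongest peaks 9 held the motif exactly, and 16 (64%) held it with 1 mismatch allowed. All of the 25 but TRN2, PRS3 and IQD14 had the GGATNC core in the 200 bp around the summit. Its absence at these genes says only that the letters are not in this window. Of peaks found in replicate 1 alone, 7 of 128 (5.47%) held the motif, and of those in replicate 2 alone, 4 of 36 (11.1%). Both shares were below the 26.9% of the shared peaks.

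**Figure D5:**
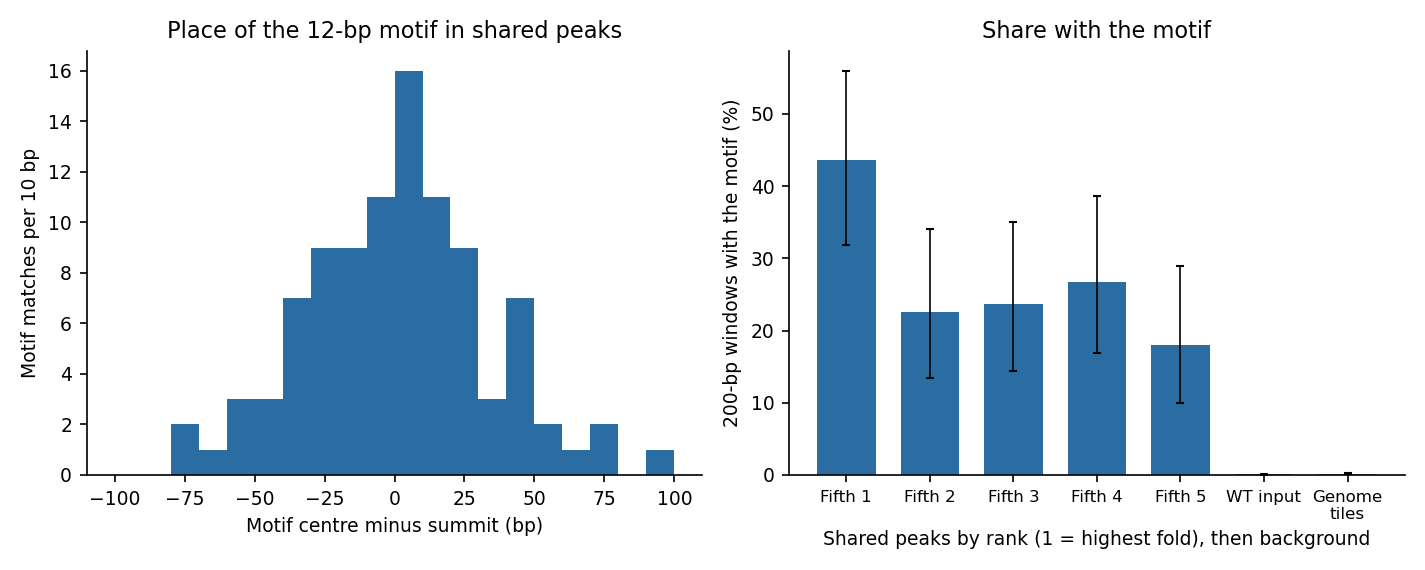
Left, number of motif matches per 10 bp by distance of the motif centre from the summit (bp), and right, share of 200-bp windows (percent) with an exact match in 5 groups of shared SCL28-GFP peaks ordered by enrichment, in WT input peaks and in genome tiles, with 95% Clopper-Pearson intervals. Of 97 matches 85 are within 50 bp of the summit, and the most enriched group has 43.7%, the other groups 18.1 to 26.8%, the WT input 0.0702% and the tiles 0.190%.

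Of the 357 shared peaks, 214 (59.9%) overlapped a peak of AtSMOS1-GFP in both of its replicates, whose lists are longer, at 5438 and 6934 peaks. These 214 had a median fold of 5.75, against 3.93 for the 95 that overlapped neither AtSMOS1-GFP list. All 25 of the strongest shared peaks were among the 214. The share of input peaks or genome windows with such an overlap was not computed, so the 59.9% has no background beside it. The internal peak names of the other protein in the list of SCL28-GFP replicate 2 also bear on this overlap.

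The 3 long shared peaks that were left out lay on SCL28, on the promoter of RPS5A and on YUC5. The first is the sequence of the transgene product, and the second a promoter used to drive transgenes, with the summit inside another annotated gene, HST. All were longer than any shared peak that was kept, and none of the 3 touched an input peak. The longest shared peak that was kept, of 1079 bp near AT5G03660, was over the limit but on none of these sequences, and had 3.78 and 4.11. Just under the limit was a peak of 995 bp in the disease resistance gene AT5G40910, with 3.11 and 2.88.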

How the data were processed

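For every sample the authors provided a single peak list. Single-end reads were trimmed, aligned to TAIR10 and searched for peaks; the submitters' processing notes name Trimmomatic 0.38, Bowtie2 2.3.5, SAMtools 1.9, MACS2 2.2.7.1 and deepTools. The study's methods and its reporting form differ in the aligner, the fragment extension and the kind of peak, and the form gives the input as control and a q value of 0.05. How the input list was called is not given in the sources used here.

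Each deposited list gives the fold enrichment at the summit, a linear ratio computed by the authors' caller, with the −log10 of the p-value and of the q-value and a display score, also as deposited. Peaks were called per sample and not pooled. From these lists, peaks of both SCL28-GFP samples that overlapped by 1 bp or more were joined, the mean of both folds was taken, and the mean of both summits was placed against 33056 genes (27444 protein-coding, no pseudogenes) of the TAIR10.1 RefSeq annotation. The nearest gene is the one containing the summit or with the closest edge. Peaks longer than 1000 bp on SCL28, YUC5 or within 2000 bp upstream of RPS5A were left out, and organelle peaks were not used. AtSMOS1-GFP lists served for 1 overlap. No read counts are in the lists, and the read totals in the study's reporting form, larger for replicate 2 than for replicate 1, were not used.

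The genes named were those nearest to the 25 strongest peaks, the 5 strongest inside genes, beyond ends and over 3 kb away, SIM/SMR genes, up to 4 per gene list, the 3 peaks touching the input and the left-out peaks with those around the length limit. The gene nearest to 1 of the 25 strongest peaks is not reported here. Cluster members, neighbours and a few other genes beside them were named after their values were seen. Members and lists were chosen with earlier results of these data known. Lists were drawn from annotation words and symbols. Python 3.11.15, numpy 2.4.6 and scipy 1.17.1 were used. The 4 computing steps were tested on simulated peaks, and each found every planted item. Alternatives changed the overlap, the q threshold, the summit, the gene set, the flank, the motif window and match, and the replicates.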

Additional observations from a re-analysis of the deposited data

Results flagged for a closer look

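The 3 long SCL28-GFP peaks outside the comparisons each had signal in both replicates where the WT input list had no peak. On SCL28 the peak was 2035 bp long, with folds of 5.33 and 5.99 (mean 5.66). On the RPS5A promoter it was 1587 bp long, with 7.20 and 5.70 (mean 6.45). On YUC5, an auxin synthesis gene, it was 1622 bp long, with 33.2 and 22.3 (mean 27.7), above every kept peak in both replicates. What part transgene sequence has in these 3 peaks was not tested.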

How the results depend on the processing

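Of 59 alternatives over 9 results, 53 stayed within the limits of counting error or 1.5 times the count, and 6 moved. No shared peak had 50% of its length covered by an input peak (0%, against 0.840%). The upstream share was 24.1% with a flank of 500 bp and 42.3% with 2 kb, and the share beyond gene ends was 14.3% with 500 bp; for the same flanks the WT input had 11.99, 21.98 and 5.34%. Allowing 1 mismatch raised the motif share to 61.9%. Using the list of a single replicate, without replicate 1 or without replicate 2, gave a motif share of 21.0 to 25.4%, 393 to 485 peaks, an input overlap of 1.018 to 1.03%, an upstream share of 33.8 to 34.9%, a share inside genes of 29.3 to 29.3%, a share beyond ends of 16.3 to 17.3%, 376 to 461 genes and 17 to 22 genes with 2 or more peaks. A −log10 q of at least 5 in both replicates kept 327 peaks. SIM/SMR genes numbered 6 to 9 under alternatives of which those on q, input contact and replicates were chosen after seeing the data. For the 102 named genes the difference between the replicates reached 54.7% of the mean. Each of 2 replicate values always lies within their SD of the mean. Leaving out a replicate could therefore not show whether a fold was stable. No paired analysis was possible because the WT input has 1 sample and shares fewer than 2 replicate numbers with SCL28-GFP. Shares rest on lists without read depth, and a list of 2 against 1 sample cannot pass a test over samples.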
